A study of Mus musculus with 12 samples.

Results

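The 8 genes described here were listed together under the epithelium of the bile ducts and the progenitor-like cells that can appear beside it in injured liver: Prom1, Ly6d, Epcam, Sox9, Krt7, Krt19, Spp1 and Cd24a. They were taken as a named list, and all 8 were found among the 13554 genes of the deposited table. Epcam, Sox9, Krt7, Krt19, Spp1 and Cd24a are textbook duct markers, whereas Ly6d is best known from B-cell precursors and squamous epithelium. Prom1 and Ly6d were chosen by their measured difference in these same libraries, a far higher level after 80% than after 70% resection, so every difference of these 2 genes is given below as a description with no test. The list is not made of surface proteins alone, since Sox9 is a nuclear factor, Krt7 and Krt19 are filament proteins and Spp1 is secreted.

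The samples were livers of wild-type (WT) male C57Bl/6J mice on postoperative day 3 (POD 3) after surgical removal of part of the liver, in 4 groups of 3 libraries, with no unoperated group. The groups were 80% resection in an arm labelled HC (PH80_HC), 80% resection plus HNF4a and G-CSF (PH80_G+H), 80% resection alone (PH80) and 70% resection (PH70). G-CSF is a cytokine that raises granulocytes, and HNF4a is a nuclear factor of hepatocytes. The sources used here do not give the meaning of HC, the doses and routes, the form of HNF4a or the ages. RNA from whole liver was sequenced with a stranded kit that selects polyadenylated RNA, and the values are reads per gene divided by a size factor per library, called normalised reads. Whether each of the 3 libraries in a group was its own animal is not in the labels, so a p-value here reflects library-to-library spread that may be technical.

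Bile ducts are tubes lined by cholangiocytes, an epithelium that makes up a small part of the liver and carries keratins 7 and 19, the adhesion molecule Epcam and the transcription factor Sox9. When hepatocyte renewal is strained, duct cells and hepatocytes near the ducts can switch on parts of this programme, a picture known as the ductular reaction. In whole-liver RNA, fewer cells of a type and less RNA per cell cannot be told apart, and the same holds for more cells and more RNA.

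Depth ranged from 9.72 M reads (PH70 replicate 3) to 44.5 M (PH80_G+H replicate 2). Within each group, 1 library carried most of the highest member values: PH80_HC replicate 1 was highest of its group in 7 of 8 members, PH80_G+H replicate 2 in 6, PH80 replicate 1 in 6 and PH70 replicate 3 in 7. PH70 replicate 3 was also the library with the highest mean deviation of a list of 32 cholangiocyte markers (0.65 log2 above the mean of the 12 libraries, over the 30 in the table). PH70 replicate 3 and PH80_G+H replicate 2 shared a tilt towards long genes (slopes of 0.22 and 0.23 log2 per log2 of length), whereas PH80_HC replicate 3 (-0.27) and PH80 replicate 1 (-0.19) tilted the other way. Values are therefore given library by library, in the order of replicates 1, 2 and 3.

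Prom1 (chromosome 5, 43993620 to 44102032, minus strand, GRCm38, GENCODE M21) encodes prominin 1, a pentaspan membrane protein of cell protrusions that is used as a progenitor marker in liver. Prom1 had 405, 106 and 59.7 normalised reads in PH80_HC livers, 69.9, 278 and 91.8 in PH80_G+H livers, 385, 388 and 204 in PH80 livers and 10.9, 16.5 and 35.7 in PH70 livers. Every library with 80% resection lay above every PH70 library, while the 3 groups with 80% resection overlapped one another. Prom1 averaged 326 ± 105 normalised reads in PH80 and 21.0 ± 13.0 in PH70 (SD, n = 3 each), a log2 difference of 3.99, or 15.9-fold. By that difference it ranked 3 among the 12570 genes tested, of which 12.8% were higher in PH80 with no overlap. The PH70 values rest on few reads: 18, 9 and 16. Prom1 overlaps the predicted genes Gm42716 on its own strand and Gm16401 on the other, and whether the counting used strand is not stated.

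Ly6d (chromosome 15, 74762056 to 74763620, minus strand) encodes a small lipid-anchored surface protein of the Ly6 family, best known from B-cell precursors and squamous epithelium. Ly6d had 2262, 344 and 953 normalised reads in PH80_HC livers, 2159.7, 7099 and 4166 in PH80_G+H livers, 9209, 3451 and 5251 in PH80 livers and 209, 259.6 and 921 in PH70 livers. The PH80 libraries lay above all PH80_HC and all PH70 libraries, the PH80_G+H and PH80 libraries overlapped, and so did the PH80_HC and PH70 libraries. The means were 5970.3 ± 2946 normalised reads in PH80 and 463 ± 397 in PH70 (SD, n = 3 each), a log2 difference of 3.90 (14.9-fold), which ranked 4. Leaving out PH70 replicate 3 gave 4.56.

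The promoters of Prom1, the member with the largest difference between PH80 and PH70, are printed beside that of Epcam, whose PH80 and PH70 libraries overlapped. The RefSeq table (GRCm38.p6) held 300-base windows, 250 bases before to 50 after a start site, for Prom1 (2 start sites), Epcam, Krt7 and Spp1; Ly6d, Sox9, Krt19 and Cd24a had no entry in it. Each is printed 5′ to 3′ along the gene, and capitals mark every match to the motifs searched. Prom1 start site 1 is chr5:44101687-44101986 (minus strand), Prom1 start site 2 is chr5:44094719-44095018 (minus strand) and Epcam is chr17:87635729-87636028 (plus strand).
Prom1 start site 1: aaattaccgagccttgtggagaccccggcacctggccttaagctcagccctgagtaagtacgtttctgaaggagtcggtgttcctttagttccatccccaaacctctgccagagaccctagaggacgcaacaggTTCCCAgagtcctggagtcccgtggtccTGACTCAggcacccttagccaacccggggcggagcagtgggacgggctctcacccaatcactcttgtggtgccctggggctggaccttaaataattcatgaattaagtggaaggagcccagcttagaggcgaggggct
Prom1 start site 2: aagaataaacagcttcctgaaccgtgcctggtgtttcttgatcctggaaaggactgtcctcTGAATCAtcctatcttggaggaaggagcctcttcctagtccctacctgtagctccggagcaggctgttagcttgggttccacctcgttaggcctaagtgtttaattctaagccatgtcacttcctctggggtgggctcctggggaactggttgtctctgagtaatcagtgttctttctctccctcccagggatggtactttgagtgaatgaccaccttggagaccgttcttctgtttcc
Epcam: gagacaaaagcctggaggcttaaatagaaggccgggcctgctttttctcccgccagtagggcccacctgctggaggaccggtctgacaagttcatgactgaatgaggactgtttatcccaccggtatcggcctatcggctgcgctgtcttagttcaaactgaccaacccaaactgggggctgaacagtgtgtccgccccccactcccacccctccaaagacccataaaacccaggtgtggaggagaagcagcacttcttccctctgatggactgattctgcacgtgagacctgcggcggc

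The motifs, searched on both strands, were RBPJ (TGGGAA), the DNA-binding partner of Notch, TEAD (GGAATG), the partner of Yap1, SOX (ACAAT), AP1 (TGANTCA) and HNF4 (CAAAGTCCA). Prom1 start site 1 held an RBPJ match on the reverse strand, beginning 116 bases before the start, and an AP1 match 88 bases before it. Prom1 start site 2 held an AP1 match 189 bases before the start. None of these 5 motifs was present in the windows of Epcam, Krt7 or Spp1. The same letters occurred in 25.6% of all 32851 promoter windows for RBPJ, 7.81% for AP1, 14.7% for TEAD, 31% for SOX and 0.475% for HNF4. The matches did not overlap one another. A match describes letters only and was not tested as a binding site.

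**Figure D1:**
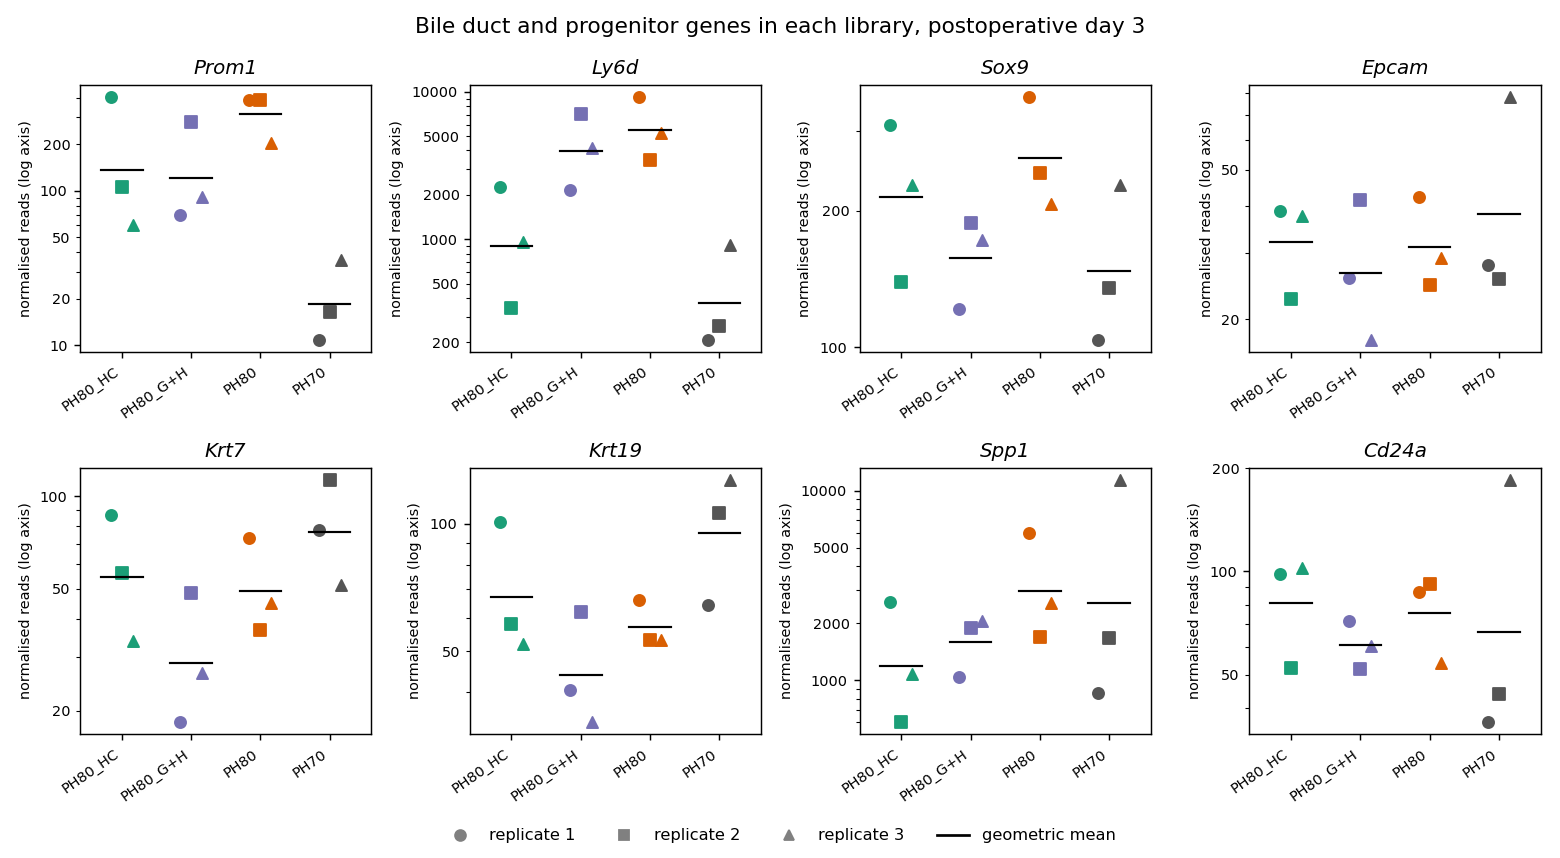
Normalised reads of the 8 genes in each library on a log scale, one panel per gene, with points for libraries and bars for geometric group means. Prom1 lies at 10.9 to 35.7 in PH70 and at 59.7 or more in every library with 80% resection, while the PH80 and PH70 points of the other genes except Ly6d overlap.

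Prom1 and Ly6d were chosen by a large difference between PH80 and PH70, so their contrast with the 6 textbook duct markers there follows from the choice. None of the 6 markers was called in PH80 against PH70 by limma, edgeR or DESeq2 (adjusted p under 0.05), where limma called 3.82% of the 12570 genes tested (1.09% higher and 2.73% lower). Sox9 and Krt19 had an unadjusted p under 0.05, with differences of opposite sign, as had 21.4% of all genes tested. In the other comparisons that share of all genes was 14.3% for PH80_HC against PH80, 10.5% for PH80_G+H against PH80 and 13.6% for PH80_HC against PH80_G+H. Over the 6 markers the median log2 difference was -0.05, with 3 above and 3 below 0, and the median of all genes was 0.01.

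Sox9 (chromosome 11, 112782224 to 112787760, plus strand) encodes the transcription factor that marks duct and progenitor identity. Sox9 had 309, 139 and 228 normalised reads in PH80_HC livers, 121, 188 and 172 in PH80_G+H livers, 356, 242 and 207 in PH80 livers and 104, 135 and 227 in PH70 livers. PH80 and PH70 overlapped through PH70 replicate 3. The log2 difference was 0.82 (SE 0.34, 95% interval 0.10 to 1.55, limma adjusted p = 0.185, unadjusted p = 0.0294). Of the 6 markers, Sox9 had the largest such difference.

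The duct keratins lay the other way. Krt19 (chromosome 11, 100140810 to 100148665, minus strand), a filament protein of simple ductal epithelium, had 101, 57.9 and 51.9 normalised reads in PH80_HC livers, 40.5, 61.8 and 34.0 in PH80_G+H livers, 66.1, 53.1 and 53.1 in PH80 livers and 64.2, 106 and 127 in PH70 livers. PH80 replicate 1 alone overlapped the PH70 libraries, and the log2 difference was -0.73 (SE 0.33, 95% interval -1.45 to -0.01, limma adjusted p = 0.228, unadjusted p = 0.0471). Krt7 (chromosome 15, 101411043 to 101430313, plus strand), its partner keratin in ducts, had 86.7, 56.3 and 33.7 normalised reads in PH80_HC livers, 18.4, 48.5 and 26.5 in PH80_G+H livers, 73.1, 36.6 and 44.8 in PH80 livers and 77.5, 113 and 51.3 in PH70 livers. PH80 replicate 1 again lay within the PH70 range, and the log2 difference was -0.63 (limma adjusted p = 0.423). Krt7 overlaps Gm671 on the opposite strand.

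Both keratins are also made by the mesothelium that covers the liver. Its marker Msln had 59.1, 131 and 90.6 normalised reads in PH80 and 271, 270.5 and 42.4 in PH70, so the PH70 library with the lowest Msln was also the one with the lowest Krt7. In PH80_HC, Msln had 178, 147 and 24.6, and in PH80_G+H 40.5, 106 and 45.6, and in both groups the library with the lowest Msln also had the lowest Krt7. PH80 was the exception, with its lowest Msln and its highest Krt7 both in replicate 1. Krt19 was lowest with Msln in PH80_HC replicate 3 but did not follow it in the other groups: PH70 replicate 3, with the lowest Msln of its group, had the highest Krt19 of all 12 libraries (127), and in PH80_G+H the lowest Krt19 was in replicate 3. Of a list of 13 mesothelial and pancreatic markers 7 were in the table, Krt14 was at 0 in a library, and summed levels ranged over 749.9 to 959.9 in PH80_HC, 517 to 817 in PH80_G+H, 612 to 963 in PH80 and 508 to 1378.1 in PH70. The elastase Cela1 had the highest mean of that list, from 311 normalised reads in PH80_G+H replicate 2 to 904 in PH70 replicate 1. PH80_HC replicate 3, with the highest sum and the lowest Msln of its group, had 896 of Cela1. The sums therefore do not follow mesothelium alone. The part of mesothelium in the keratin values was not tested.

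Epcam (chromosome 17, 87635979 to 87651129, plus strand), the adhesion molecule by which duct cells are commonly sorted, had 38.9, 22.6 and 37.6 normalised reads in PH80_HC livers, 25.8, 41.6 and 17.7 in PH80_G+H livers, 42.2, 24.7 and 29.2 in PH80 livers and 27.8, 25.6 and 78.0 in PH70 livers. All 4 groups overlapped, and PH70 replicate 3 stood above the rest. The log2 difference between PH80 and PH70 was -0.29 (95% interval -1.25 to 0.68, limma adjusted p = 0.747), and 0.22 without PH70 replicate 3. Per library the gene rested on 14 to 84 reads. Against Epcam per kilobase of exon, Prom1 stood at a ratio of 3.87, 6.66 and 2.97 in PH80 livers and 0.166, 0.272 and 0.194 in PH70 livers. Ly6d stood at 605, 388 and 499 in PH80 livers and 20.9, 28.1 and 32.7 in PH70 livers. In PH80_HC livers the ratios were 4.41, 1.99 and 0.672 for Prom1 and 161, 42.1 and 70.3 for Ly6d. In PH80_G+H livers they were 1.15, 2.83 and 2.20 for Prom1 and 233, 474 and 653 for Ly6d. These ratios are within a library, so the size factor cancels. Prom1 and Ly6d were chosen by their difference between PH80 and PH70, so the gap between those 2 groups follows from the choice.

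Spp1 (chromosome 5, 104435118 to 104441050, plus strand) encodes osteopontin, a secreted matrix protein made by duct cells and also by lipid-handling macrophages. Spp1 had 2574, 602 and 1078 normalised reads in PH80_HC livers, 1036, 1893 and 2059 in PH80_G+H livers, 5998, 1685 and 2546 in PH80 livers and 859, 1682 and 11435 in PH70 livers. The single highest value was in PH70 replicate 3 and the next in PH80 replicate 1, and all groups overlapped. The log2 difference between PH80 and PH70 was 0.21 (95% interval -1.46 to 1.89, limma adjusted p = 0.899). Its direction rests on single libraries: it was 1.30 without PH70 replicate 3 and -0.57 without PH70 replicate 1. Of the stretches of 50 bases in Spp1, 11.6% also occur in Gm42793, a predicted gene that overlaps it on the same strand, so its reads may have been split by the counting.

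Among macrophage genes, 2 picked after their values were seen were high in the libraries with the highest Spp1 of PH80 and PH70. Gpnmb, a lysosomal glycoprotein of lipid-laden macrophages, had 248, 92.0 and 6.25 normalised reads in PH80 and 2.42, 12.8 and 564 in PH70. Trem2, a lipid-sensing receptor of the same cells, had 221, 132 and 74.0 in PH80 and 40.5, 95.1 and 288 in PH70. In PH80_G+H, however, Gpnmb was lowest (4.08) in replicate 3, where Spp1 was highest. The fixed macrophage list did not follow Spp1: its summed level was highest of PH80 in replicate 2 (42680.4), where Spp1 was lowest, and highest of PH80_HC in replicate 3 (51981), whereas Spp1 was highest in replicate 1. All 15 markers of a macrophage list were in the table with none at 0, and their summed level was 30495 to 51981 in PH80_HC, 18298.5 to 25262 in PH80_G+H, 19149 to 42680.4 in PH80 and 16263 to 23224 in PH70. Their part in the Spp1 values was not tested.

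Cd24a (chromosome 10, 43578284 to 43584265, plus strand), a small glycosylated surface protein of progenitor cells that is also carried by neutrophils, B cells and young red cells, had 98.0, 52.1 and 102 normalised reads in PH80_HC livers, 71.7, 51.9 and 60.5 in PH80_G+H livers, 87.2, 92.0 and 54.2 in PH80 livers and 36.3, 43.9 and 185 in PH70 livers. PH70 held both its lowest and its highest value. The log2 difference between PH80 and PH70 was 0.18 (limma adjusted p = 0.861), and 0.91 without PH70 replicate 3. In Cd24a 2.75% of the 50-base stretches also occur in the annotated gene Gm6212. Of the neutrophil markers 15 of 15 were in the table, with Ly6g, Mpo, Ltf, Ngp and Camp at 0 in a library. Their summed level was 5245 to 54597 in PH80_HC, 14775 to 20792 in PH80_G+H, 12411 to 91189 in PH80 and 2841 to 10904 in PH70, most of it Lcn2, which also stands in the progenitor list. Their mean log2 deviation, in which each gene counts alike, was 0.09, -0.13 and 1.24 in PH80_HC and -0.45, 2.23 and -1.28 in PH80. Their part in Cd24a was not tested.

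**Figure D2:**
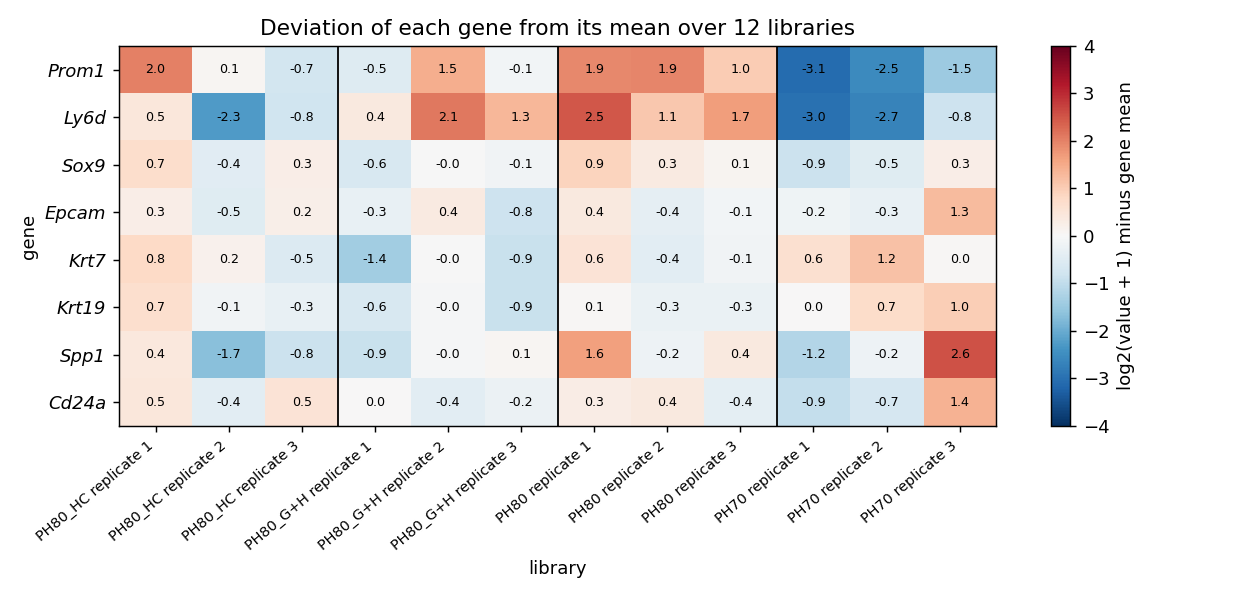
Deviation of each of the 8 genes in each of the 12 libraries from its mean over all libraries, in log2. PH70 replicate 3 is the library where Epcam, Krt19, Spp1 and Cd24a are highest, while Prom1 and Ly6d stay below their overall mean there.

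Per kilobase of exon over all 12 libraries, Ly6d (mean level 4064) and Spp1 (1691) were far above the other members. Sox9 (49.0), Krt19 (43.2), Cd24a (38.3) and Prom1 (35.1) lay close together, followed by Epcam (16.6) and Krt7 (13.6). The order from Sox9 to Prom1 was not tested. The highest library stood above the lowest by 3.42-fold for Sox9, 3.74-fold for Krt19, 5.10-fold for Cd24a and 37.2-fold for Prom1. Ly6d is also carried by B-lineage cells: 10 of 12 B-cell markers were in the table, and Ebf1 and Vpreb3 were at 0 in a library. The summed level of the B-cell list was 2157 to 6751 in PH80_HC, 840.0 to 1041 in PH80_G+H, 583 to 1615 in PH80 and 1017 to 2845 in PH70, most of it Cd74, which macrophages also carry. Their part in the Ly6d values was not tested.

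The HC arm was set against PH80. Ly6d was lower in all 3 PH80_HC libraries than in any PH80 library, at 1186 ± 980 normalised reads in PH80_HC and 5970.3 ± 2946 in PH80 (SD, n = 3 each), a log2 difference of -2.60 given without a test. Leaving out single libraries moved it between -3.26 (without PH80_HC replicate 1) and -1.91 (without PH80_HC replicate 2). Of all genes tested, 7.38% were lower in PH80_HC with no overlap. Prom1 averaged 190 ± 187 normalised reads in PH80_HC and 326 ± 105 in PH80, a log2 difference of -1.18 with overlapping groups, since PH80_HC replicate 1 held the highest value of all 12 libraries. Without that library it was -1.96, and without PH80_HC replicate 3 it was -0.59.

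None of the 6 markers was called in PH80_HC against PH80 by limma, edgeR or DESeq2, against 0.891% of all genes called by limma, and none had an unadjusted p under 0.05. Their median log2 difference was 0.06, with 4 above and 2 below 0. The lowest limma adjusted p belonged to Spp1 (0.489), whose log2 difference was -1.31 with a 95% interval of -2.99 to 0.36. With the same total in every library, which shifted the median of all genes by -0.33, Epcam, Krt7, Krt19 and Cd24a lay below 0 instead of above it.

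The arm with G-CSF and HNF4a was set against PH80 in the same way. Ly6d averaged 4475 ± 2484 normalised reads in PH80_G+H and 5970.3 ± 2946 in PH80, a log2 difference of -0.46 with overlapping groups. Prom1 averaged 146 ± 114 in PH80_G+H and 326 ± 105 in PH80, a log2 difference of -1.36 with overlap through PH80_G+H replicate 2, and -1.95 without that library. Limma called 0.119% of all genes in this comparison, and none of the 6 markers was called by limma, edgeR or DESeq2 or had an unadjusted p under 0.05. All 6 lay below 0, with a median of -0.55 beside an all-gene median of 0.00. Sox9 in this comparison was the only case, over the 6 markers and 4 comparisons, in which the groups did not overlap: all 3 PH80_G+H libraries lay below the PH80 libraries, with a log2 difference of -0.73 (95% interval -1.45 to 0.00, limma adjusted p = 0.478). Of all genes tested, 8.11% were lower without overlap in this comparison. In either direction the share without overlap was 27.0% in PH80 against PH70, 15.6% in PH80_HC against PH80, 16.9% in PH80_G+H against PH80 and 17.1% in PH80_HC against PH80_G+H.

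The HC arm was also set against the G-CSF and HNF4a arm. Ly6d had a log2 difference of -2.14, given without a test. The groups overlapped, because PH80_HC replicate 1 (2262) lay just above PH80_G+H replicate 1 (2159.7). Prom1 differed by 0.18, and by -0.60 without PH80_HC replicate 1. Of the 6 markers, 5 lay above and 1 below 0 with a median of 0.42, none called by limma, edgeR or DESeq2 and none with an unadjusted p under 0.05, against 0.255% of all genes called by limma. Krt7 came nearest, at 0.91 (95% interval -0.03 to 1.85, limma adjusted p = 0.381). The 3 comparisons with PH80 share its libraries, and so their values are not independent.

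**Figure D3:**
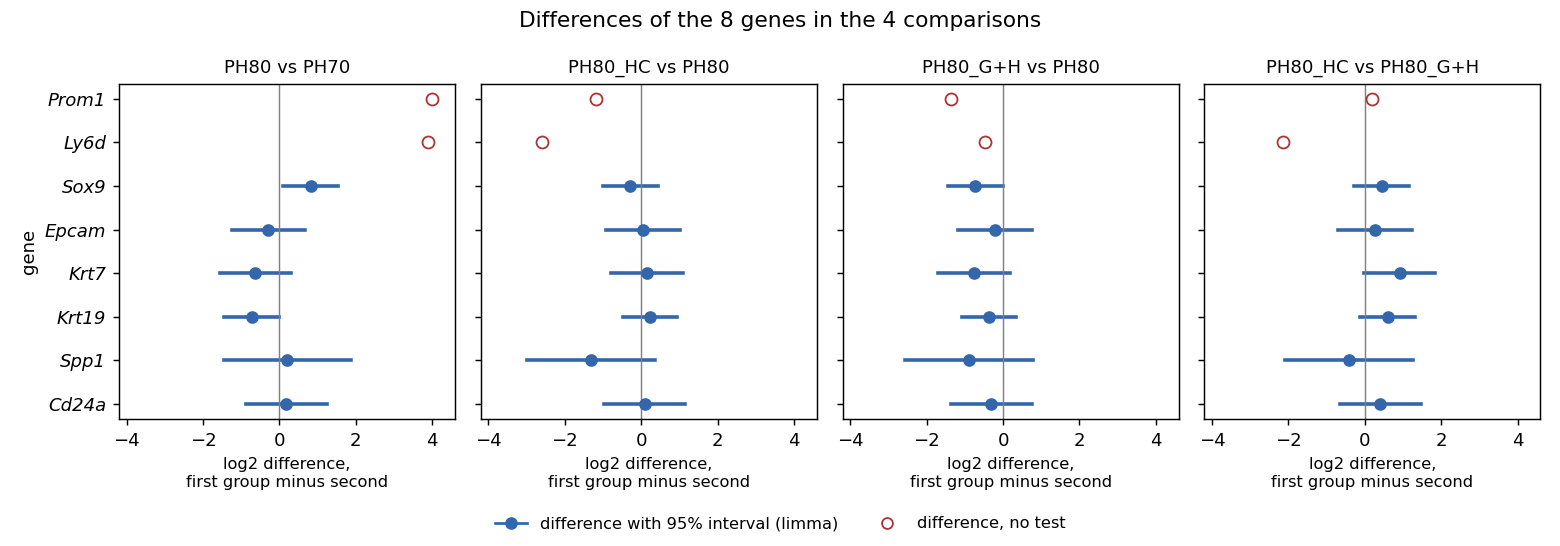
Log2 differences of the 8 genes in the 4 comparisons, with 95% intervals from limma, and open circles without a test for Prom1 and Ly6d. Prom1 at 3.99 and Ly6d at 3.90 in PH80 against PH70 were chosen by that difference, and the intervals of the 6 markers mostly span 0.

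The wider duct programme was read from a list of 32 cholangiocyte markers, of which 27 were tested. Limma called none of them in any of the 4 comparisons. In PH80 against PH70 the list had 4 members of 27 with an unadjusted p under 0.05, where 21.4% of all genes had one, edgeR called 0 and DESeq2 called 2, and the median log2 difference was -0.04 beside 0.01 for all genes. The unadjusted counts were 4 in PH80_HC against PH80, 3 in PH80_G+H against PH80 and 3 in PH80_HC against PH80_G+H, where edgeR and DESeq2 called 0. DESeq2 called more of the 12570 genes tested than limma did, which bears on its list counts here and below. Its totals were 950 in PH80 against PH70, 503 in PH80_HC against PH80, 203 in PH80_G+H against PH80 and 306 in PH80_HC against PH80_G+H. Limma called 480, 112, 15 and 32 in the same order. The most abundant members of the list, Krt8 and Krt18, are also hepatocyte keratins. Krt8 had 16321, 16910 and 15466 normalised reads in PH80 livers and 8229.7, 9289.7 and 22535 in PH70 livers, again with PH70 replicate 3 highest.

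A separate list held 23 genes tied to the ductular reaction and to progenitor cells. Of these, 17 were tested, and in PH80 against PH70 limma called 2 higher and 1 lower, with a median log2 difference of 0.49. Of all genes tested, limma called 1.09% higher and 2.73% lower, and their median was 0.01. Among the 17 list genes, 8 had an unadjusted p under 0.05, where 21.4% of all genes had one, and edgeR called 3 and DESeq2 6. DESeq2 called 950 of the 12570 genes tested. The list, like the other gene lists, was chosen with earlier results of these data known. Its counts, median and p-values are therefore given as description and not as independent evidence. Tnfrsf12a, the receptor for the cytokine TWEAK that drives ductular growth, had 3451, 4342 and 4158 normalised reads in PH80 livers and 955, 1000 and 1505 in PH70 livers. The groups were well apart, and the log2 difference was 1.81 (SE 0.29, limma adjusted p = 0.00656), a call lost in 1 of 25 alternatives, the removal of length and GC trends (adjusted p = 0.0514). Afp, the fetal liver serum protein, had 442, 467 and 442 normalised reads in PH80 livers and 115, 101 and 118 in PH70 livers, a log2 difference of 2.01 (SE 0.48, limma adjusted p = 0.0354). That call was lost in 10 of 25 alternatives, among them leaving out any single PH80 or PH70 library or PH80_G+H replicate 3, and its adjusted p reached at most 0.141. Lgr4, a receptor that amplifies Wnt signals, fell to 352, 476 and 546 normalised reads in PH80 livers, against 820.1, 1049 and 963 in PH70 livers, with a log2 difference of -1.06 (limma adjusted p = 0.0240). Leaving out any PH70 library, PH80 replicate 1 or PH80 replicate 2 ended that call, as did the same total per library, with an adjusted p of at most 0.126.

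In the other comparisons none of these 17 genes was called by limma, with unadjusted p under 0.05 in 3 for PH80_HC against PH80, 4 for PH80_G+H against PH80 and 2 for PH80_HC against PH80_G+H. EdgeR called 0 in each, and DESeq2 called 2 in PH80_HC against PH80, 0 in PH80_G+H against PH80 and 1 in PH80_HC against PH80_G+H. Over all genes tested, DESeq2 called 503, 203 and 306 in the same order. Tnfrsf12a had 2508, 1650.2 and 1238 normalised reads in PH80_HC livers and 3098, 1905 and 1580.1 in PH80_G+H livers, all below the PH80 libraries. PH80_HC replicate 3 lay within the range of the PH70 libraries. Of all genes tested, 7.38% were lower without overlap in PH80_HC against PH80 and 8.11% in PH80_G+H against PH80. Against PH80 the log2 difference of Tnfrsf12a was -1.20 in PH80_HC (limma adjusted p = 0.0753) and -0.91 in PH80_G+H (limma adjusted p = 0.276).

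Signalling genes that act on duct fate were read from 2 lists, whose limma counts lay near the 3.82% of all genes called in PH80 against PH70. Of 18 Notch pathway genes tested limma called 0 in PH80 against PH70 (1 passed an unadjusted p of 0.05, and edgeR and DESeq2 called 0), with a median of 0.08, and Notch2, the main duct-forming receptor, differed by 0.10. Of 19 genes of the Yap1 and TEAD pathway limma called 1 (4 passed an unadjusted p of 0.05, edgeR called 0 and DESeq2 2), with a median of 0.01. That gene was Dlc1, which averaged 642 ± 109 normalised reads in PH80 and 1066 ± 55.3 in PH70 (log2 difference -0.74, limma adjusted p = 0.0432), a call lost in 15 of 25 alternatives, edgeR and the removal of any PH70 library, any PH80_G+H library, PH80 replicate 1 or PH80 replicate 2 among them (adjusted p up to 0.181). Yap1 itself differed by 0.01. Of 9 other Ly6 family genes tested limma called 0 (2 passed an unadjusted p of 0.05, and edgeR and DESeq2 called 0), and Ly6e, the most abundant, differed by 0.34. Among 22 genes whose proteins bind or act with the members, limma called 0 (3 with an unadjusted p under 0.05, 0 by edgeR, 1 by DESeq2). Over all genes tested in PH80 against PH70, DESeq2 called 950, and 21.4% had an unadjusted p under 0.05.

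Hepatocyte identity was checked with 15 genes, all in the table. Limma called 1 in PH80 against PH70: Cebpa, a transcription factor of mature hepatocytes, averaged 2748 ± 922 normalised reads in PH80 and 6733 ± 91.5 in PH70 (log2 difference -1.36, limma adjusted p = 0.00814). The call was lost without PH70 replicate 2 (adjusted p = 0.0522). The median of the list was -0.18 in PH80 against PH70, and edgeR called 1 and DESeq2 3 of its genes, where DESeq2 called 950 of all genes tested.

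In the remaining comparisons, where limma called 0.891%, 0.119% and 0.255% of all genes, limma and edgeR called none of the genes in the Yap1, Notch, Ly6, partner and hepatocyte lists. These lists held 19, 18, 9, 22 and 15 tested genes. The share of all genes with an unadjusted p under 0.05 was 14.3% in PH80_HC against PH80, 10.5% in PH80_G+H against PH80 and 13.6% in PH80_HC against PH80_G+H. DESeq2 called 503, 203 and 306 of all genes tested in these comparisons. Unadjusted p under 0.05 was found in PH80_HC against PH80 for 1 Yap1, 2 Notch, 3 Ly6, 2 partner and 2 hepatocyte genes, and DESeq2 called 2 genes, both of the hepatocyte list. In PH80_G+H against PH80 it was found for 4 Yap1, 3 Notch, 1 Ly6, 2 partner and 1 hepatocyte genes, with 1 DESeq2 call in the Yap1 list. In PH80_HC against PH80_G+H it was found for 6 Yap1, 3 Notch, 0 Ly6, 3 partner and 0 hepatocyte genes, with 2 DESeq2 calls in the Notch list and 1 among the partners.

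Lists of other liver cells were read beside the members. In PH80_HC against PH80, where Ly6d was lower, limma called 1 of 8 B-cell genes: Cd74, the invariant chain of antigen presentation, averaged 3861 ± 2253 normalised reads in PH80_HC and 672 ± 426 in PH80 (log2 difference 2.53, limma adjusted p = 0.0344). That call was lost in 10 of 25 alternatives (adjusted p up to 0.105), including leaving out PH80_HC replicate 2 or 3, PH80 replicate 2 or 3, PH70 replicate 2 or PH80_G+H replicate 3. In PH80 against PH70 limma called 1 of 7 erythroid genes, Car1, a carbonic anhydrase of young red cells (4.10 ± 3.94 normalised reads in PH80 and 29.8 ± 10.8 in PH70), and 1 of 6 mesothelial and pancreatic genes, the elastase Cela2a (15.1 ± 10.3 in PH80 and 56.6 ± 2.36 in PH70). Their adjusted p of 0.0369 for Car1 and 0.0387 for Cela2a (limma) did not hold with edgeR, with the same total per library, or without any PH70 library, PH80 replicate 2 or PH80_G+H replicate 1 or 3. In PH80_HC against PH80, 6 of the 7 erythroid genes had an unadjusted p under 0.05 (14.3% of all genes), with a median log2 difference of 1.48. There limma and edgeR called 0 and DESeq2 3 genes of the list, and DESeq2 called 503 of all genes tested. Their summed level was 1998 to 4669 in PH80_HC, 1978 to 3129 in PH80_G+H, 1664 to 2202 in PH80 and 1879.8 to 3829.6 in PH70. Cd24a, which young red cells carry, had a log2 difference of 0.09 in PH80_HC against PH80, and their part in it was not tested.

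Limma and edgeR called none of 13 neutrophil, 15 macrophage and 14 endothelial and stellate genes in any of the 4 comparisons. In PH80 against PH70, 4 neutrophil, 4 macrophage and 2 endothelial or stellate genes had an unadjusted p under 0.05, where 21.4% of all genes had one, and DESeq2 called 4, 1 and 0 genes of these lists. In PH80_HC against PH80 the counts were 1, 4 and 6, with 0, 0 and 1 called by DESeq2, and in PH80_G+H against PH80 they were 0, 2 and 1 with 0 DESeq2 calls. In PH80_HC against PH80_G+H, with 13.6% of all genes, they were 1, 9 and 3, with 0, 4 and 0 called by DESeq2. Over all genes tested, DESeq2 called 950 in PH80 against PH70, 503 in PH80_HC against PH80, 203 in PH80_G+H against PH80 and 306 in PH80_HC against PH80_G+H. The list medians in PH80_HC against PH80_G+H were -0.13 for neutrophil, 0.87 for macrophage and -0.60 for endothelial and stellate genes. In the same order they were 0.90, 0.39 and 0.04 in PH80 against PH70, beside 0.01 for all genes. There 13 of 13 neutrophil and 13 of 15 macrophage genes lay above 0. In PH80_HC against PH80 the medians were -0.07, 0.37 and -0.24. In PH80_G+H against PH80 they were 0.19, -0.35 and 0.03, and 15 of 15 macrophage genes lay below 0. The part of these cells in the members' values was not tested.

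**Figure D4:**
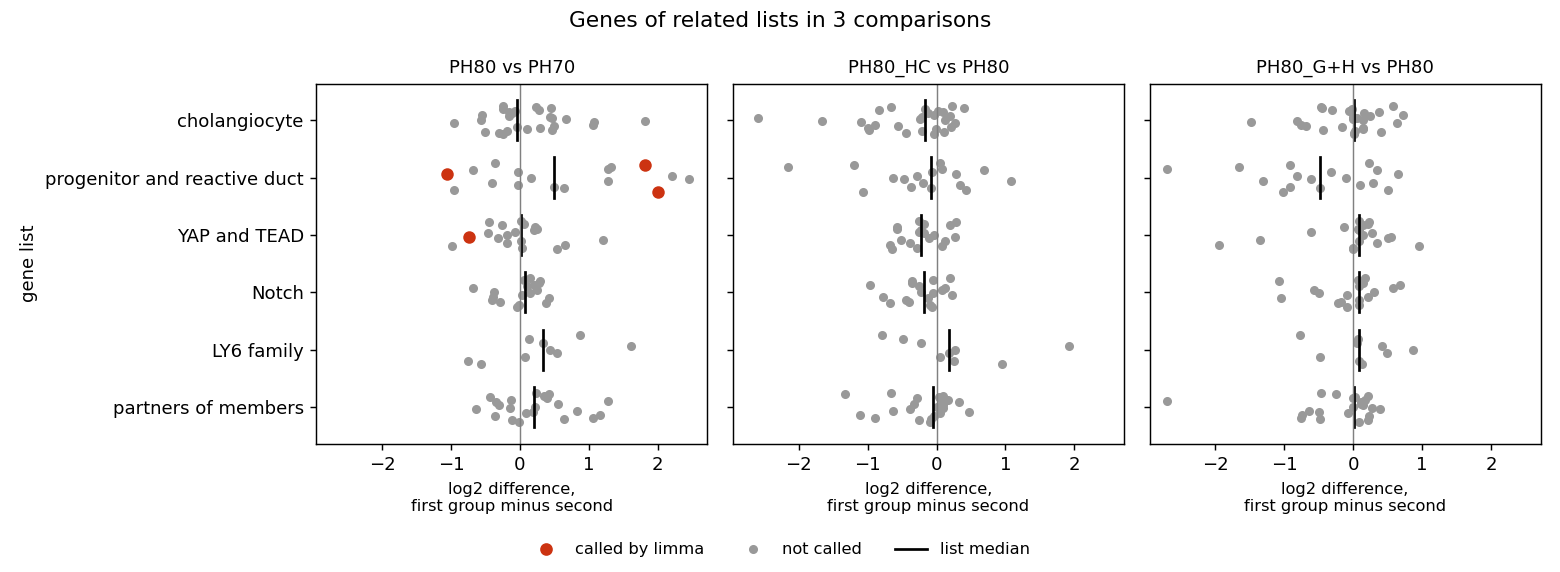
Log2 differences of every tested gene of 6 lists (duct, progenitor, Yap1 and TEAD, Notch, Ly6 family and partners of the members) in 3 comparisons, with called genes in red and list medians as bars. In PH80 against PH70 the progenitor list has its median at 0.49 and the cholangiocyte list at -0.04.

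The patterns of the members over the 12 libraries were compared by Pearson's r of log2 values, as a description without a test, and group differences enter each r. Prom1 was most like Ly6d (0.82) and Sox9 (0.73) among the members, and unlike Epcam (0.06) and Krt19 (-0.19). Prom1 and Ly6d were both chosen by a large difference between PH80 and PH70, so a high r between them partly follows from the choice. Krt7 and Krt19 went together (0.76), and so did Epcam and Spp1 (0.72). Among 10572 genes with a mean of at least 50 normalised reads, those most like Prom1 were Neu3, a sialidase (r = 0.95), Tpd52 (0.93), Crip2 (0.92), Kctd11 (0.90) and Ado (0.89). Those most like Ly6d were Lysmd2 (0.92), Rfxank (0.91), the collagen receptor Ddr1 (0.90), Fndc10 (0.90) and Rhoc (0.89). Ado and the secreted glycoprotein Mfge8 led for Sox9 (0.92 and 0.91, n = 12), Ccdc181 for Epcam (0.87), Mkln1 and the caveolar protein Cav1 for Krt7 (0.82 and 0.81), Ash2l for Krt19 (0.94), Fads3 for Spp1 (0.90) and the complement receptor C3ar1 for Cd24a (0.87).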

How the data were processed

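RNA of mouse liver was measured in 12 libraries, 4 groups of 3, by stranded sequencing of polyadenylated RNA, per the labels' protocols. Per the submitters' processing notes, DESeq2 was used with the build GRCm38 (mm10). The sources used here do not name the aligner, the counter or the annotation. The table as deposited has 13554 genes with a normalised signal, which is the authors' read counts divided by a size factor per library. This was read from the values: 100% came out as whole reads within 0.01 of a read, at depths of 9.72 to 44.5 M reads. A gene with few reads is measured with less precision in the shallow libraries.

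Values were analysed as log2(value + 1) in the 12570 genes with at least 10 normalised reads in at least 3 libraries, a scale that understates the fold change of low genes. All 8 members passed. Limma 3.58.1 (R 4.3.3) took in the 12 libraries of all groups, with group as its only factor and an intensity trend. Two-sided p-values were adjusted by Benjamini-Hochberg over all genes tested, with a threshold of 0.05, and intervals are at 95%. The scripts were first run on simulated data. As alternatives, the quasi-likelihood test of edgeR 4.0.16 and also DESeq2 1.42.0 were applied to the recovered reads, and the pseudocount, the filter, the scaling, the model and the libraries were changed (25 alternatives, 12 of them leaving out 1 library).

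The members and the 13 gene lists were chosen with earlier results of these data known, so a planned test of Prom1 and Ly6d between PH80_HC and PH80_G+H is not used. Gene groups are described by counts and medians. List genes were named by a fixed rule: those called, then those with the highest mean. Gpnmb and Trem2 were singled out after their values were seen. Coordinates and exon lengths came from GENCODE M21 (GRCm38), which matched 13513 genes once. Promoters came from RefSeq (GRCm38.p6).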

Additional observations from a re-analysis of the deposited data

How the results depend on the processing

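None of the 6 duct markers was called in any of the 4 comparisons under any of the 25 alternatives. Prom1 and Ly6d kept their sign in PH80 against PH70, at log2 differences of 3.46 to 4.44 and 3.27 to 4.56. The count of genes called over the whole table moved. For PH80 against PH70 (480) it was 237 with the same total per library (127 higher and 110 lower, against 137 and 343, with the median shifted by 0.12), 950 with DESeq2, and 61 to 727 with 1 library left out. For PH80_HC against PH80 (112) it was 72 with the same total (17 higher and 55 lower, against 82 and 30), 503 with DESeq2, 2 with only the 2 groups compared, 278 with length and GC trends removed, and 28 to 125 with 1 library left out. For PH80_G+H against PH80 (15) it was 0 without the intensity trend, 0 with the same total, 203 with DESeq2, 36 with length and GC trends removed, and 0 to 26 with 1 library left out. For PH80_HC against PH80_G+H (32) it was 306 with DESeq2 and 2 to 59 with 1 library left out. The cause was not tested.

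Replicate numbers did not pair the samples: 6 of 18 same-number pairs correlated above 0.1 (-0.37 to 0.37, median 0.03). With the replicate block the counts were 293 for PH80 against PH70, 65 for PH80_HC against PH80, 9 for PH80_G+H against PH80 and 8 for PH80_HC against PH80_G+H, and no marker was called.

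Signs of small member differences turned. In PH80 against PH70, Spp1 was -0.44 with edgeR and -0.45 with DESeq2 and ran from -0.57 to 1.30 with 1 library left out; Cd24a was -0.11 with edgeR and -0.15 with DESeq2 and ran from -0.25 to 0.91; Epcam ran from -0.57 to 0.22. In PH80_HC against PH80 with the same total, Epcam was -0.28, Krt7 -0.17, Krt19 -0.092 and Cd24a -0.24. Epcam was also -0.032 with the same upper quartile and -0.021 with length and GC trends removed. With 1 library left out, Epcam ran from -0.12 to 0.28, Sox9 from -0.55 to 0.022, Krt7 from -0.17 to 0.49, Krt19 from -0.059 to 0.42 and Cd24a from -0.15 to 0.40. In PH80_G+H against PH80, Epcam ran from -0.53 to 0.067. In PH80_HC against PH80_G+H, Prom1 was -0.054 with the same total and ran from -0.60 to 0.77, Epcam from -0.026 to 0.57 and Spp1 from -0.98 to 0.065. The filter at 50 normalised reads dropped Epcam, which then had no value. Epcam, Krt7, Krt19 and Cd24a rest on few reads, which limits their precision.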
